A study of Mus musculus with 4 samples.

Results

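The genes described here are Celf1, its paralogs of the CELF family (Celf2, Celf4, Celf5 and Celf6) and the muscleblind genes Mbnl1, Mbnl2 and Mbnl3, measured in lenses of Celf1 conditional knockout and Control mice. All probes of the array were taken whose gene symbol in the deposited table was one of these names or its older form (Cugbp1, Cugbp2, Brunol4 to Brunol6), which gave 18 of 45263 probes and covered 7 of the 8 genes. Celf5 had no probe under these symbols. The comparison asks whether the paralogs or the muscleblind genes differed in level between these lenses.

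RNA was taken from lenses at postnatal day 6 and hybridized to Illumina MouseWG-6 v2.0 BeadChips, with 1 lens per array. The Celf1 cKO lenses (A and B, n = 2) carried a Celf1 germline knockout allele, lacZKI, a conditional allele with exon 5 flanked by loxP sites, and the transgene Pax6GFPCre, which turns on Cre in the lens placode. The Control lenses (A and B, n = 2) carried the lacZKI allele beside a wild-type allele. All 4 lenses therefore carried the lacZKI allele, so the comparison is of conditional knockout against heterozygote and not against wild type, and only the cKO group is described with Cre. No lens came from an inbred line, since the animals were crosses involving C57BL/6 and FVB. Whole lenses were used, so that fewer cells of a type and less RNA per cell cannot be told apart in any value below.

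CELF proteins bind GU-rich stretches of RNA, where they act on alternative splicing in the nucleus and on translation and decay of mRNA in the cytoplasm. Muscleblind proteins bind other short motifs and on many alternative exons act in the opposite direction to CELF1. In myotonic dystrophy, a disease whose signs include cataract, expanded CUG repeats sequester muscleblind proteins while the CELF1 protein accumulates.

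The probes that carry the results are 50 bases long, and their sequences are shown because probes of the same gene did not always move alike. Of most, 30 bases are given. Capitals mark bases shared with an overlapping probe of the same gene, and the number in each name is the start of the probe in its transcript record. Every printed letter was read from the deposited table.
Celf1 probe at 259: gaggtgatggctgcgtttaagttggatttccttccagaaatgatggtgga
Celf1 probe at 1457: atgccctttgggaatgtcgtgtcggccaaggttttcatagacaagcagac
Celf1 probe at 2040, first 30 bases: gaGCAGCCCTACTAGCACATGCCGTGTGGT
Celf2 probe at 3512, first 30 bases: caccttttgctgaactgactcacagttaga
Celf2 probe at 6541, first 30 bases: ttgctgtttagatcgaagttttttctgacc
Mbnl1 probe at 4771, first 30 bases: cccttcaaacacgtcgctttgctttttgtg
Mbnl2 probe at 4243, last 30 bases: aTCTCAGTTCAACAGCTCCGGTAGTTAGGG
Mbnl2 probe at 4293, first 30 bases: TCTCAGTTCAACAGCTCCGGTAGTTAGGGa
Mbnl probe at 3866, first 30 bases: caagcatcctggaccaagctcataagctca
The Celf1 probes at 2040 and 2042 share 48 bases and are not independent measurements. The pair of Mbnl2 probes shares 29 bases. The probe filed under the symbol Mbnl, an older name of Mbnl1, lies outside the member symbols and is reported beside them.

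The deposited table places the Celf1 probes on the plus strand of chromosome 2, at 90827896 to 90827945 for the probe at 259, 90852929 to 90852978 for the probe at 1457 and 90857070 to 90857119 for the probe at 2040. It names no genome build for these positions. The overlapping Mbnl2 probes are placed 1263992 bases apart on chromosome 14, so the positions may not all follow one build. The reason for this distance was not tested, and no exon or intron is assigned from the positions. In particular, the files do not place the Celf1 probes relative to exon 5. A probe outside the deleted exon detects a transcript whether or not it carries the deletion, so whether the values below test the deletion itself cannot be said from these files.

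Of the 18 probes, among 45263 on the array, 8 were detected on all 4 arrays (detection p under 0.05), 1 on 3 arrays and 9 on none. A probe was retained with detection on at least 2 arrays, which kept 9 probes of 4 genes: all 4 of Celf1, 2 of 4 of Celf2, 1 of 2 of Mbnl1 and both of Mbnl2. The levels below are log2 signals after background correction and quantile normalization, averaged over the retained probes of a gene. A gene was called where its adjusted p in limma was under 0.05, its mean log2 signal exceeded 4.6 and its log2 fold change exceeded 0.58 in either direction.

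Among all 11517 genes tested, 1344 were called (11.7%), with 692 elevated (6.01%) and 652 reduced (5.66%) in cKO lenses. An unadjusted p under 0.05 was found for 3671 genes (31.9%). How many genes were called depended strongly on which lens was left out. The arrays differed in brightness by group: 16261 and 16925 probes were detected in cKO lenses against 14542 and 14180 in Control lenses, so brightness and genotype cannot be told apart. The elevated share of the calls, 51.5%, was 97.7% with no normalization between arrays, 97.3% with each array set to the same median, 24.8% with the same median over probes detected on all 4 arrays and 11% in the deposited normalized table after a shift. Under these 4 scalings the median over all genes tested moved from a log2 fold change of 0.01 to 0.57, 0.53, -0.19 and -0.31. Transcripts of the sex chromosomes also separated the groups: Xist, the X-inactivation RNA, was at 7.48 and 7.33 in cKO and 4.26 and 4.39 in Control lenses, and the Y-linked Ddx3y at 6.86 and 4.83 against 9.06 and 8.88 (log2 signal). The Y-linked Uty was dim and not called, at 4.67 and 4.89 in cKO and 4.47 and 4.52 in Control lenses, a difference opposite in sign to that of Ddx3y. The cKO lenses also differed from each other in Ddx3y. In cKO A it was at 6.86, between cKO B and the Control lenses, although Xist was at 7.48 in that lens. The labels give no sex, and the part of sex in the results was not tested. All 10 lens markers examined, among them Cryaa, Mip and Bfsp2, were detected, while 2 of 9 neuron markers, 1 of 7 neural retina markers and 3 of 7 skeletal muscle markers were detected on any array. Markers of other cells were detected more broadly, with 4 of 4 vessel markers, 4 of 5 macrophage markers and 2 of the 4 blood markers that had a probe. Of the 10 lens markers, 1 was called, the beaded filament gene Bfsp2, which was reduced (log2 fold change -0.74), and the median of the list was -0.17. Of the 3 macrophage markers tested, Cd68 was called as elevated (0.69), while Csf1r and Aif1 were at -0.11 and -0.07. No vessel or blood marker was called in limma, with 2 of 4 and 0 of 2 tested at an unadjusted p under 0.05, against 31.9% of all genes. The 2 vessel markers, Kdr at -0.61 and Cdh5 at 0.60 in log2 fold change, went in opposite directions. The summed unnormalized intensity of the macrophage markers was 515.2 and 539.8 in cKO and 496.9 and 439.7 in Control lenses, and that of the vessel markers 508.7 and 518.4 against 447.9 and 377.3. For the blood markers it was 4333.2 in cKO A and 2279.5 in cKO B, against 2339.3 and 1593.4, so that cKO A stood apart from the other 3 lenses. The part of cell composition in the results was not tested.

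Celf1 was reduced in cKO lenses. Its log2 signal was 7.51 in cKO A, 7.01 in cKO B, 8.78 in Control A and 8.62 in Control B, so that both cKO lenses lay below both Control lenses, as they did for 29.7% of all genes. The group means were 7.26 ± 0.36 (SD, n = 2) in cKO and 8.70 ± 0.11 (SD, n = 2) in Control. The log2 fold change was -1.44 ± 0.20 (SE), with a 95% interval of -1.91 to -0.97 and an adjusted p of 0.0109 in limma, which leaves 36.8% of the Control level. By absolute fold change Celf1 ranked 151st of the 11517 genes. Without Control replicate B the log2 fold change was -1.53 with an adjusted p of 0.0595, so the call was lost although the difference was not smaller. With 2 lenses against 2, an exact permutation test cannot go below p = 0.333 for any gene, and the limma p-values rest on a spread estimated across all genes.

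All 4 Celf1 probes were called as reduced, against 5.4% of the 16262 retained probes called as reduced and 5.86% as elevated. These calls depended on single lenses and on the processing, while the sign did not change. Without Control B all 4 probes missed the threshold (adjusted p = 0.0575 to 0.0987 in limma), without Control A the probes at 1457, 2040 and 2042 did (0.0601 to 0.0623), and without cKO B those at 2040 and 2042 did (0.0533). All 4 also missed it in the normalized table with values under 1 set to 1 and without the detection filter, and all but the probe at 1457 missed it with no normalization between arrays or the same median for each array. The probe at 1457 read 6.99 and 6.05 in cKO and 8.34 and 8.30 in Control lenses, which is a fold change of -1.80 ± 0.29 on the log2 scale (SE, adjusted p = 0.0135). The probe at 259, which the table assigns to a different Celf1 transcript record, read 7.30 and 7.43 in cKO and 8.85 and 8.51 in Control lenses, a log2 fold change of -1.32 ± 0.18 (adjusted p = 0.0081). The overlapping probes at 2040 and 2042 gave -1.31 ± 0.22 and -1.34 ± 0.22 (adjusted p = 0.0146 and 0.0154). The cKO B lens lay below cKO A on 3 of these 4 probes and above it on the probe at 259. The spread between the cKO lenses was thus larger on the probes at 1457, 2040 and 2042 (SD 0.67, 0.41 and 0.44) than on the probe at 259 (SD 0.09). The probe at 1457 differed from the mean of the other Celf1 probes by -0.48 in log2 fold change, a difference that did not pass the test of probes within genes (adjusted p = 0.564 in limma's diffSplice, where 1.25% of 8162 probes passed).

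Before normalization the separation of the groups on Celf1 was narrower. The probe at 1457 had unnormalized intensities of 184.5 and 113.5 in cKO and 290.7 and 225.1 in Control lenses, without overlap. The probe at 259 had 222.0 and 257.9 in cKO and 402.3 and 254.3 in Control lenses, so that cKO B exceeded Control B. The probes at 2040 and 2042 overlapped as well, with 330.8 in cKO A against 321.0 in Control B and 313.7 against 299.6. Thus 3 of the 4 Celf1 probes overlapped between groups before normalization. The share of all probes with such an overlap was not counted, so this count has no background to be read against. With no normalization between arrays the gene-level log2 fold change of Celf1 was -0.60, where the median of all genes was 0.57.

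**Figure D1:**
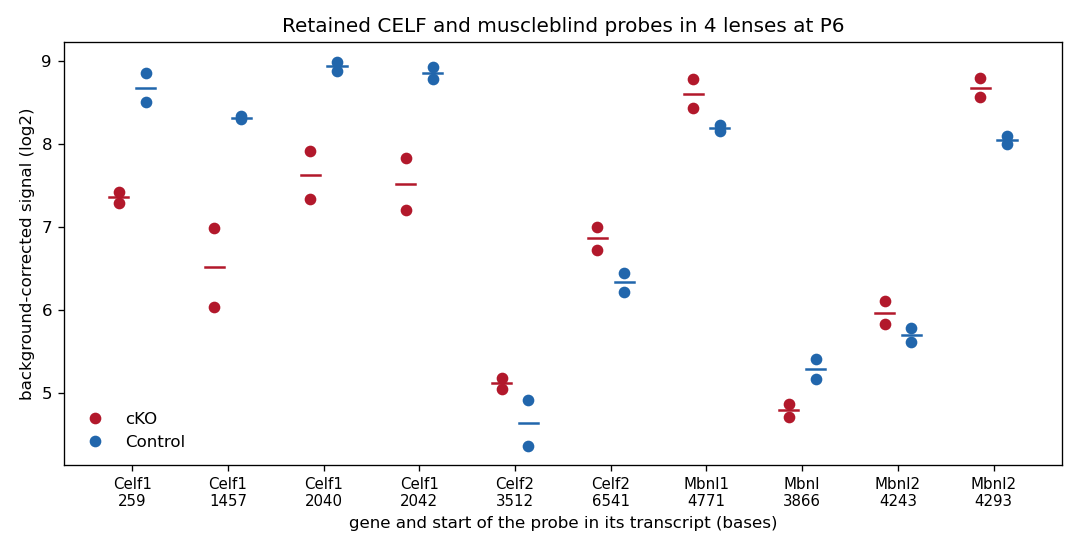
Background-corrected, normalized log2 signal (vertical axis) of each retained probe, named on the horizontal axis by gene and start in its transcript in bases; points are single lenses (red cKO, blue Control, n = 2 each) and short lines are group means. All 4 Celf1 probes lie lower in both cKO lenses than in both Control lenses, the Celf2, Mbnl1 and Mbnl2 probes lie higher, and the probe filed as Mbnl lies lower. The groups did not overlap in 62.4% of all genes tested.

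Celf2, the closest paralog of Celf1 in sequence and binding, was the only other CELF gene with a retained probe. Its log2 signal was 5.89 in cKO A, 6.10 in cKO B, 5.69 in Control A and 5.29 in Control B. Both cKO lenses lay above both Control lenses, as did 32.6% of all genes tested. The log2 fold change was 0.51 ± 0.18 (SE), equal to 1.42-fold, with a 95% interval of 0.08 to 0.93 and an adjusted p of 0.111 in limma. Celf2 was therefore not called. Without Control B its log2 fold change was 0.32, and without Control A it was 0.73. In the shifted normalized table it was 0.06 (adjusted p = 0.864 in limma). With the same median over probes detected on all 4 arrays it was 0.24 (adjusted p = 0.279 in limma).

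The Celf2 probe at 6541 read 6.72 and 7.01 in cKO and 6.46 and 6.22 in Control lenses, a log2 fold change of 0.53 ± 0.18 (adjusted p = 0.0957). The probe at 3512 was dimmer, at 5.06 and 5.19 in cKO and 4.92 and 4.37 in Control lenses, and was not detected in Control B. Its log2 fold change of 0.48 ± 0.21 (adjusted p = 0.172 in limma) was 0.23 without Control B and 0.80 without Control A. It was -0.15 in the shifted normalized table and -0.02 with the same median over probes detected on all 4 arrays. The remaining 2 Celf2 probes were not detected on any array, with unnormalized intensities from 37.2 to 49.0. In the deposited normalized table the probe at 6541 stood at 106.1 and 140.2 in cKO and 88.5 and 73.0 in Control lenses.

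Celf4, Celf5 and Celf6, members of the family known mainly from the nervous system, had no detected probe under their own symbols. The 3 Celf4 probes were detected on no array, with unnormalized intensities from 38.2 to 52.7 and a lowest detection p of 0.093. The single Celf6 probe lay between 37.6 and 42.4, with a lowest detection p of 0.754. These probes have only an upper bound in either group, so no fold change is given. Celf3, the remaining relative, had 1 probe under its older name Tnrc4, which was not detected on any array. Another 7 probes that the reference gene table ties to the members by other symbols were examined as well. Of these, 5 were not detected on any array, the Mbnl probe was detected on all 4, and 1 of the 3 tied to Celf5 was detected in Control B alone.

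Mbnl1, the muscleblind gene best known as an antagonist of CELF1 in splicing, had 1 retained probe, at 4771. Its log2 signal was 8.43 in cKO A, 8.78 in cKO B, 8.23 in Control A and 8.15 in Control B. Both cKO lenses lay above both Control lenses, as did 32.6% of all genes tested. The log2 fold change was 0.41 ± 0.17 (SE, 95% interval 0.02 to 0.81), equal to 1.33-fold. The adjusted p was 0.143 in limma, and Mbnl1 was not called. In the deposited normalized table the probe stood at 378.2 and 513.5 in cKO and 333.8 and 321.1 in Control lenses. Without cKO B the log2 fold change was 0.24, and without cKO A it was 0.58. The other Mbnl1 probe, at 72, was not detected on any array.

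The probe filed as Mbnl pointed the other way. It read 4.72 and 4.88 in cKO and 5.41 and 5.18 in Control lenses, or -0.50 ± 0.17 in log2 fold change (SE, adjusted p = 0.0965), and the groups did not overlap. It was called as reduced in the shifted normalized table (-0.84, adjusted p = 0.00676) and with the same median over probes detected on all 4 arrays (-0.88, adjusted p = 0.00762), and was at -0.12 with no normalization between arrays (adjusted p = 0.682). Its difference from the Mbnl1 probe at 4771 was -0.91 in log2 fold change, with an adjusted p of 0.114 in limma's diffSplice over all genes with several retained probes. When this probe was averaged into Mbnl1, the log2 fold change of the gene was -0.04 (adjusted p = 0.878). The direction of Mbnl1 in these arrays thus depends on which probes stand for the gene.

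Mbnl2, a muscleblind gene prominent in brain splicing, was at a log2 signal of 7.20 in cKO A, 7.45 in cKO B, 6.95 in Control A and 6.81 in Control B. The log2 fold change was 0.45 ± 0.15 (SE, 95% interval 0.08 to 0.82), equal to 1.36-fold, with an adjusted p of 0.102 in limma, and Mbnl2 was not called. Both cKO lenses again lay above both Control lenses, as did 32.6% of all genes tested.

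The probes of Mbnl2 differed in size of change. The probe at 4293 read 8.56 and 8.79 in cKO and 8.10 and 8.002 in Control lenses, a log2 fold change of 0.63 ± 0.16 (SE, 95% interval 0.24 to 1.01). Its adjusted p of 0.0505 lay just outside the threshold. Under 9 of 17 alternatives the adjusted p was under 0.05, and under 7 of these, among them cyclic loess (adjusted p = 0.0428) and detection on all 4 arrays (adjusted p = 0.0346), the fold threshold was also passed and the probe was called. The probe at 4243 read 5.84 and 6.11 in cKO and 5.79 and 5.62 in Control lenses, a log2 fold change of 0.27 ± 0.17 (adjusted p = 0.328 in limma). It was 0.13 without cKO B and 0.39 without cKO A, and turned to -0.08 in the shifted normalized table. The difference between these overlapping probes did not pass the test within genes (adjusted p = 0.575 in limma's diffSplice). With the brighter probe alone standing for the gene, Mbnl2 was called (0.63, adjusted p = 0.0452).

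Mbnl3, an X-linked gene known from placenta and muscle precursors, had 2 probes that were not detected on any array, with unnormalized intensities from 37.3 to 45.1 and a lowest detection p of 0.506.

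**Figure D2:**
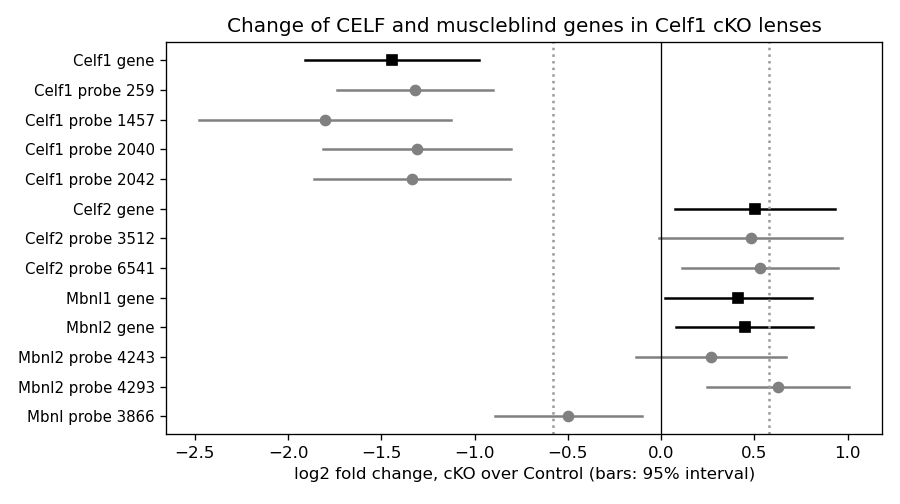
Log2 fold change of cKO over Control (horizontal axis) for each tested gene (black squares) and its retained probes where a gene has more than 1, with the probe filed as Mbnl last (grey circles), each with its 95% interval; dotted lines mark a log2 fold change of 0.58 in either direction. The intervals of Celf1 lie wholly below -0.58, while those of Celf2, Mbnl1 and Mbnl2 lie above 0 at gene level and cross 0.58.

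The groups did not overlap in any of the 4 measured member genes, nor in 62.4% of all genes. In all, 1 of the 4 measured member genes was called, Celf1, against 11.7% of all genes called and 5.66% called as reduced. None of the other 3 was called. The unadjusted limma p of each of these 3 was under 0.05, as it was for 31.9% of all genes. Celf2, Mbnl1 and Mbnl2 had log2 fold changes of 0.51, 0.41 and 0.45, which placed them at the 88.7th, 84.5th and 86.3rd percentile of all genes tested. A log2 fold change above 0 was found in 51.1% of all genes. These sizes were thus common on the arrays, and 6.01% of genes were called as elevated. The thresholds being missed does not show that the 3 genes were unchanged: the upper ends of their 95% intervals were 0.93, 0.81 and 0.82. After subtraction of the median of all genes under each of the full-sample settings, the log2 fold changes of the 3 genes by their own probes ranged from 0.24 to 0.84 for Celf2, from 0.22 to 0.69 for Mbnl1 and from 0.35 to 0.62 for Mbnl2.

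**Figure D3:**
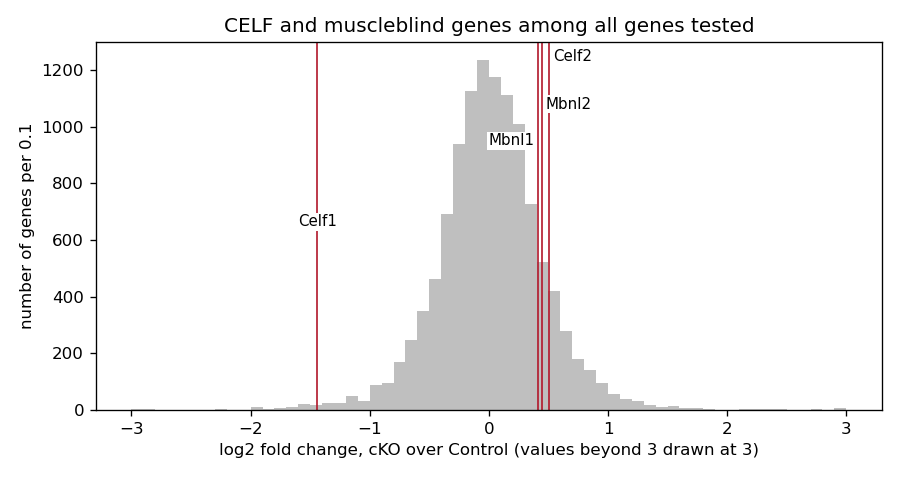
Number of genes (vertical axis) per 0.1 of log2 fold change of cKO over Control (horizontal axis) among the 11517 genes tested, with the 4 measured member genes as red lines. Celf1 lies in the lower tail at -1.44, and Celf2, Mbnl1 and Mbnl2 lie at 0.51, 0.41 and 0.45 on the shoulder of the distribution.

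With no normalization between arrays, Celf2, Mbnl1 and Mbnl2 had log2 fold changes of 0.998, 1.26 and 1.18 and all were called, as they were with each array set to the same median (0.96, 1.23 and 1.14). Under these settings the median of all genes was 0.57 and 0.53, and 97.7% and 97.3% of called genes were elevated. Under the other 2 scalings that moved the median of all genes, none of the 3 was called in limma. In the shifted normalized table, where the median of all genes was -0.31, the 3 genes had 0.06, 0.34 and 0.23, and with the same median over detected probes, where it was -0.19, they had 0.24, 0.50 and 0.42.

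Genes that act with CELF and muscleblind proteins were examined in 4 lists, of which 47 of 67 genes were tested and 2 were called (4.26%, against 11.7% of all genes). Among kinases and cyclins known to act on CELF1, with the myotonic dystrophy kinase added, 1 of 6 tested genes was called. This was Dmpk, whose repeat expansion causes myotonic dystrophy, at 6.48 and 6.76 in cKO and 6.06 and 5.64 in Control lenses, 1.70-fold elevated (log2 fold change 0.76 ± 0.19 SE, adjusted p = 0.0475). The median log2 fold change of this list was -0.07, beside 0.01 over all genes. Of its 6 tested genes 2 had an unadjusted p under 0.05 in limma, against 31.9% of all genes. Among transcripts with alternative exons known as CELF or muscleblind targets, 4 of 11 had an unadjusted p under 0.05 in limma, against 31.9%. The median of this list was 0.24, and 1 of the 11 genes was called. It was Map4k4, a kinase with regulated exons, which was reduced, at 7.92 and 7.87 in cKO and 8.57 and 8.48 in Control lenses (log2 fold change -0.63 ± 0.14, adjusted p = 0.0332). The calls in the 4 lists also depended on which lens was left out.

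None of the 18 tested splicing regulators was called in limma, against 11.7% of all genes. Of them 3 had an unadjusted p under 0.05, against 31.9% of all genes, and their median log2 fold change was -0.08. Rbfox1, a splicing factor that shares targets with both families, came closest: it read 5.80 and 5.90 in cKO and 6.42 and 6.42 in Control lenses, with an adjusted p of 0.0446 but a log2 fold change of -0.56 that missed the fold threshold. None of the 12 tested binders of GU-rich or AU-rich elements and deadenylases was called in limma, against 11.7% of all genes, 2 of them had an unadjusted p under 0.05, against 31.9%, and the median was -0.16. Parn, the deadenylase that CELF1 recruits, read 7.42 and 7.42 in cKO and 6.97 and 6.92 in Control lenses (log2 fold change 0.47, adjusted p = 0.0646), and Cnot7, a subunit of the main deadenylase complex, had a log2 fold change of -0.45 (adjusted p = 0.0744). The arrays read transcript level at the probes and not exon inclusion, so splicing of these targets was not measured.

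**Figure D4:**
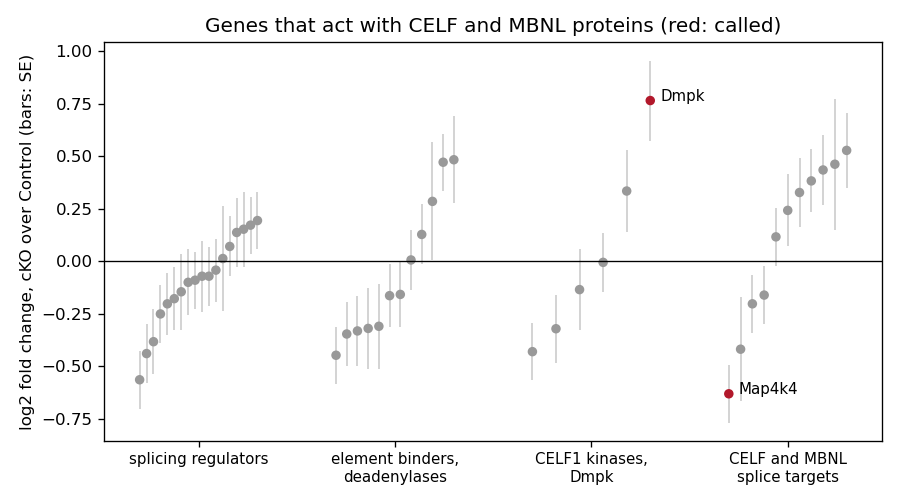
Log2 fold change of cKO over Control (vertical axis, bars are SE) for the tested genes of the 4 lists named on the horizontal axis, each sorted by value; red points were called and grey points were not. Dmpk at 0.76 and Map4k4 at -0.63 are the called genes, and the other genes lie between -0.56 and 0.53.

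Over the 4 arrays, the called genes whose values followed Celf1 most closely were C920011N12Rik, Thsd4 and Piwil1, each with a Pearson r over 0.99. With 4 points this is a description only, since 223 genes, 96 of them called, exceeded that value. Thsd4, which encodes an extracellular matrix protein, read 6.63 and 6.10 in cKO and 7.93 and 7.79 in Control lenses. Piwil1, a germline Argonaute-family gene, was near the lower end of the measurable range at 4.77 and 4.55 against 5.45 and 5.36.

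**Figure D5:**
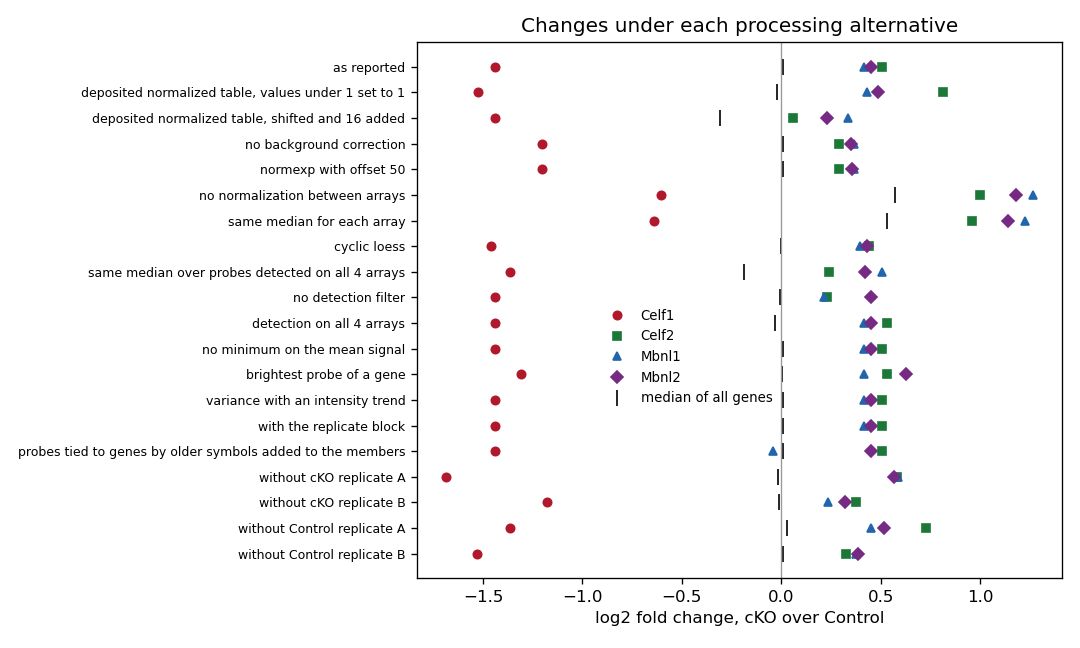
Log2 fold change of cKO over Control (horizontal axis) of Celf1, Celf2, Mbnl1 and Mbnl2 under each processing alternative (vertical axis), with the median of all genes as a black tick. Celf1 lies below 0 in every setting shown, and the other 3 genes lie above 0 except Mbnl1 at -0.04 once the Mbnl probe is added.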

How the data were processed

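Total RNA of mouse lenses at postnatal day 6 was measured on 1-colour bead arrays. The authors deposited unnormalized signal intensity and rank-invariant normalized intensity, exported by the array software per the file headers, with detection p-values that were read from the normalized table. The unnormalized intensity was background-corrected and quantile-normalized with neqc of limma 3.58.1 in R 4.3.3 (offset 16), and 18 lines with shifted cells were left out. Of 45263 probes, the 16262 detected on at least 2 arrays were averaged by gene on the log2 scale, following the study's gene-level method. Its edgeR step was not used, because intensities are not counts. Groups were compared with lmFit and eBayes, in two-sided tests whose p-values were adjusted by Benjamini-Hochberg across all genes or probes. Genes were named through RefSeq's gene table. Bead standard errors of the 9 retained member probes were 2.56% to 15.9% of signal, over 20 to 48 beads, and the number of arrays limits precision.

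The members and lists were chosen with earlier results of these data known. The text names every member, called list genes, Celf3, Xist and Ddx3y, and the 3 called genes nearest to Celf1. Rbfox1, Parn, Cnot7, Uty, Csf1r, Aif1, Kdr and Cdh5 were named after their values were seen, and Cryaa and Mip as examples of lens markers. Alternatives concerned the table, background correction, scaling, filters, probe averaging, variance model, replicate block and left-out arrays, which were normalized anew without that array. The test of probes within genes and the added Mbnl probe were chosen after seeing the data. The fit was tested on simulated data.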

Additional observations from a re-analysis of the deposited data

How the results depend on the processing

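Celf1 stayed below 0 under every alternative run. Its call was lost in the normalized table with values under 1 set to 1 (-1.52, adjusted p = 0.0762), without the detection filter (-1.44, adjusted p = 0.0695) and without Control replicate B. Leaving out each replicate gave -1.69 to -1.18 for Celf1, 0.32 to 0.73 for Celf2, 0.24 to 0.58 for Mbnl1 and 0.32 to 0.57 for Mbnl2. Celf2, Mbnl1 and Mbnl2 became called with no normalization between arrays (0.998, 1.26 and 1.18) and with the same median for each array (0.96, 1.23 and 1.14), and Mbnl2 with the brightest probe (0.63). Directions turned for Mbnl1 with the Mbnl probe added (-0.042), for the Celf2 probe at 3512 in the shifted normalized table (-0.15) and with the same median over probes detected on all 4 arrays (-0.0188), and for the Mbnl2 probe at 4243 in the shifted table (-0.085). The causes were not tested.

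The number of member genes called was 0 in the floored normalized table, 4 with no normalization, 4 with the same median, 0 without the detection filter, 2 with the brightest probe, and 0 to 1 with a replicate left out. For all genes it was 7 in the floored and 3022 in the shifted normalized table, 747 without background correction, 753 with normexp and offset 50, 5790 with no normalization, 5418 with the same median, 2693 with the median over detected probes, 155 without the detection filter, and 113 to 1310 with a replicate left out. For the related lists it was 0 in the floored and 10 in the shifted table, 0 without background correction, 0 with normexp, 26 with no normalization, 25 with the same median, 7 with the median over detected probes, 0 without the detection filter, and 0 to 3 with a replicate left out.

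The labels do not say whether the replicate letters shared by the groups pair the lenses. The differences between A and B correlated at -0.0106 across genes between groups. With a single such difference per group, this value cannot settle whether the lenses were paired. With the replicate letter as a block, 1751 genes were called, and the calls of the member genes did not change (Celf1 -1.44, adjusted p = 0.000471). Slide could not be used as a block, since no slide is given in the files used here.

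With a single lens left in a group, that lens was assumed to vary like the others. Dim probes such as Celf2 at 3512 lie close to the background, and the undetected members have only an upper bound.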
